A study of Mus musculus with 12 samples.

Results

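Clasrp, Fbxo46, Mrps12, Nfkbib, Zfp30 and Zfp420 are 6 genes on mouse chromosome 7 that lie within about 20 Mb of Apoe and whose array readings differed between ApoE-/- and Bl6 samples. They were chosen for that difference, apolipoprotein genes being left aside, so their genotype values are given as a description with no test, and the diet comparisons, which played no part in the choice, are tested. They are 6 of 13525 genes with a tested probe. The array holds 9 of its 46237 probes for them, 1 each for Fbxo46, Nfkbib and Zfp420 and 2 each for Clasrp, Mrps12 and Zfp30, and each probe is described on its own. RNA came from CD11c+ spleen cells, a fraction rich in dendritic cells, isolated with magnetic beads and hybridised to Illumina MouseWG-6 v2 arrays. The 12 arrays form 4 groups of 3: ApoE-/- on normal chow (samples 1 to 3), ApoE-/- on a high-cholesterol diet (samples 4 to 6), Bl6 on chow (samples 7 to 9) and Bl6 on the high-cholesterol diet (samples 10 to 12). ApoE-/- mice lack apolipoprotein E in every tissue, and the Bl6 mice are named in the labels as wild type. The labels give no age, no number of mice behind a sample and no breeding record, so the spread between samples may be technical.

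The 6 genes share a chromosome and not a pathway. Clasrp encodes a protein rich in serine and arginine that binds CLK kinases and belongs to the splicing machinery. Fbxo46 encodes an F-box protein, the kind of subunit that picks the targets of SCF ubiquitin ligases. Mrps12 encodes a protein of the small subunit of the mitochondrial ribosome. Nfkbib encodes IkB-beta, an inhibitor that binds NF-kappaB dimers, the transcription factors that drive much of the activation of dendritic cells. Zfp30 and Zfp420 encode zinc-finger proteins of the large clusters that chromosome 7 carries. When a gene is disrupted in mouse embryonic stem cells of one strain and the mutation is crossed into another, stretches of the first strain's chromosome around the gene commonly stay with it. The labels do not state how the ApoE-/- mice here were bred, and the strain of origin of this stretch of chromosome was not tested.

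In gene order, Fbxo46 and Clasrp lie before Apoe, with 32 and 6 protein-coding genes between. The other 4 lie after it: Mrps12 with 258 genes between, Nfkbib with 261, Zfp30 with 289 and Zfp420 with 292. Mrps12 and Nfkbib are thus close neighbours, as are Zfp30 and Zfp420, and within each of these pairs the readings went opposite ways between the genotypes. For that reason the 95 bases before the start of each of these 4 genes are shown, 5′ to 3′ on the gene's strand, from RefSeq (GRCm38.p6). Capitals mark the letters CCAAT, searched on both strands.
Mrps12 (chr7:28741822-28741916, minus strand): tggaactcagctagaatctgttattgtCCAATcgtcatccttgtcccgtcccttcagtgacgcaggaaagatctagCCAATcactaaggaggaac
Nfkbib (chr7:28766645-28766739, minus strand): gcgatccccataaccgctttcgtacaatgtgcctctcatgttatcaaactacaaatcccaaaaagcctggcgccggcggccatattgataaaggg
Zfp30 (chr7:29783873-29783967, plus strand): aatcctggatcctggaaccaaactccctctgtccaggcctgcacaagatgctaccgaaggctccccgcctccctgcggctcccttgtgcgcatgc
Zfp420 (chr7:29859917-29860011, plus strand): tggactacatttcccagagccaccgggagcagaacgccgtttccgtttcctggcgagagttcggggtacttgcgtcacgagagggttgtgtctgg
Of the 4 stretches, that of Mrps12 holds the letters CCAAT, at 2 places, and the others do not. CCAAT occurs in 18.1% of 32851 promoter stretches of this length. The letters CCGGAAG, searched in the same way and with no overlap with CCAAT, occur in 4.4% of them and in none of the 4. The stretches hold 3 CpG in Mrps12, 6 in Nfkbib, 4 in Zfp30 and 8 in Zfp420, against a median of 3. These are RefSeq's reference sequence, not that of the ApoE-/- mice. The probes' own sequences were not used here, so whether bases differ between the strains under a probe was not tested.

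Apoe itself read 5.49 to 5.93 on the 6 ApoE-/- arrays and 12.18 to 13.28 on the 6 Bl6 arrays, in log2 units of normalised intensity, the scale used below. The genotypes also differed in sex-linked genes. Xist, the RNA behind X inactivation in females, lay at 4.17 to 4.39 on ApoE-/- arrays and at 9.75 to 10.88 on Bl6 arrays. The Y-linked genes Eif2s3y (9.75 to 10.44 against 4.11 to 4.41) and Kdm5d (7.42 to 7.67 against 4.18 to 4.63) read the other way. By these genes the ApoE-/- arrays read as male and the Bl6 arrays as female. Genotype and sex therefore cannot be told apart on these arrays, and this holds for every genotype difference below. Itgax, which encodes CD11c, was detected on all 12 arrays by both its tested probes. Dendritic cell markers had mean levels of 9.57 to 9.68 on ApoE-/- arrays and 9.44 to 9.76 on Bl6 arrays. Of their 10 tested genes, 0 were called by genotype (limma adjusted p under 0.05), against 1.98% of all 13525 tested genes. The neutrophil markers averaged 8.01 to 8.63 against 7.24 to 7.63, and 8 of 13 tested rose. Of the T cell markers 3 of 8 rose (9.47 to 9.77 against 9.12 to 9.46), of the NK cell markers 1 of 7 rose (8.84 to 9.30 against 8.71 to 9.13), and of the macrophage markers 2 of 9 fell (11.75 to 11.98 against 11.72 to 12.26). For B cell markers 0 of 5 were called (10.19 to 10.38 against 10.27 to 10.86), and for erythroid markers 0 of 5 (10.31 to 11.09 against 9.66 to 11.27). At a share of 1.98%, nothing is read from 0 calls in lists this short. All ApoE-/- arrays lay below all Bl6 arrays for 5 of the 9 macrophage and 1 of the 5 B cell markers, and above for 0 of either. Over all tested genes, 215 of 13525 lay wholly below. The part of this cell mixture in the readings of the 6 genes was not tested. In such bulk samples, fewer cells of a type and less RNA per cell cannot be told apart.

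On 7 of the 8 tested probes of these genes, the 6 ApoE-/- arrays lay wholly above or wholly below the 6 Bl6 arrays. Over all tested probes that happened for 2.33%, but the genes were chosen on this contrast, so nothing is read from the count. The ApoE-/- arrays were lower on 5 of the 7 probes, which belong to 4 genes (all tested probes 1.25%), and higher on 2, those of Nfkbib and Zfp30 (all tested probes 1.08%). A tested probe is one detected above background on at least 3 arrays. In what follows a difference is ApoE-/- minus Bl6, averaged over diets unless a diet is named, with its standard error from limma's model (n = 6 per genotype, 3 per diet).

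Clasrp, the splicing-related gene and the one of the 6 nearest to Apoe, had 2 probes that did not read alike. The brighter probe read 6.17, 6.12 and 5.90 in the ApoE-/- chow samples and 6.21, 6.43 and 6.48 in the ApoE-/- high-cholesterol samples. Bl6 samples on chow gave 8.62, 8.85 and 8.98, and those on the high-cholesterol diet gave 8.59, 8.85 and 8.35. The highest ApoE-/- array and the lowest Bl6 array were 1.87 apart, while the SD within groups was 0.19. The genotype difference was -2.49 ± 0.11, a 5.62-fold lower reading, with -2.76 ± 0.16 on chow and -2.22 ± 0.16 with cholesterol feeding. The deposited intensities behind it were 155 to 175 for ApoE-/- and 414 to 599 for Bl6, and the probe was detected on all 12 arrays.

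The dimmer Clasrp probe showed no such split. It read 4.26, 4.41 and 4.16 in ApoE-/- chow samples, 4.81, 4.40 and 4.15 in ApoE-/- high-cholesterol samples, 4.71, 4.21 and 4.26 in Bl6 chow samples and 4.77, 4.17 and 4.44 in Bl6 high-cholesterol samples. It was detected on 3 arrays, samples 4, 7 and 10, and the genotypes overlapped. Its difference was -0.06 ± 0.14, with an interval (95%) of -0.38 to 0.25, at a level where most arrays showed no signal above background. The sign of this difference turned to 0.07 in the log2 table that the authors deposited.

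Mrps12, of the mitochondrial ribosome, had 2 bright probes that read the same way. The brighter one read 10.15, 9.90 and 10.03 in ApoE-/- chow samples and 9.88, 10.12 and 9.96 in ApoE-/- high-cholesterol samples, against 10.90, 10.95 and 11.02 in Bl6 chow and 11.06, 10.98 and 11.01 in Bl6 high-cholesterol samples. The other read 9.34, 9.63 and 9.63, then 9.52, 9.66 and 9.50, against 10.56, 10.85 and 10.87, then 10.65, 10.74 and 10.70, in the same order of groups. On both probes every ApoE-/- array lay below every Bl6 array, by gaps of 0.75 and 0.90 at SDs within groups of 0.09 and 0.13. The differences were -0.98 ± 0.08 and -1.18 ± 0.09, or 1.97-fold and 2.27-fold lower. Both probes were detected on all 12 arrays, and the differences on chow (-0.93 and -1.23) were close in size to those on the high-cholesterol diet (-1.03 and -1.13). Mrps12 is the one gene of the 6 for which a second tested probe also parted the genotypes.

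Fbxo46, the F-box gene on the other side of Apoe, read 5.88, 5.62 and 6.13 in ApoE-/- chow samples and 6.02, 6.66 and 6.13 in ApoE-/- high-cholesterol samples. Bl6 samples gave 7.25, 8.02 and 7.73 on chow, then 7.51, 7.49 and 7.70 with cholesterol feeding. All ApoE-/- arrays were below all Bl6 arrays, by 0.59, with the widest spread within groups of the tested probes of these genes (SD 0.29). The difference was -1.54 ± 0.15, 2.91-fold lower, and it was -1.79 ± 0.22 on chow and -1.30 ± 0.22 with cholesterol feeding. The gene had this 1 probe, detected on all 12 arrays.

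Nfkbib, the inhibitor of NF-kappaB, went the other way from its near neighbour Mrps12. It read 7.96, 8.12 and 8.04 in ApoE-/- chow samples, 8.31, 8.23 and 7.91 in ApoE-/- high-cholesterol samples, 6.55, 7.11 and 6.90 in Bl6 chow samples and 6.95, 7.34 and 7.06 in Bl6 high-cholesterol samples. The lowest ApoE-/- array was 0.57 above the highest Bl6 array, sample 11, the narrowest gap of the 7 probes. The difference was 1.11 ± 0.12, 2.16-fold higher, and 1.19 ± 0.17 and 1.04 ± 0.17 on the 2 diets. This single probe was detected on every array, with deposited intensities of 281 to 433 on the ApoE-/- arrays and 174 to 260 on the Bl6 ones.

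Of the 2 zinc-finger genes, Zfp30 was detected almost only in ApoE-/- samples and Zfp420 only in Bl6 samples. The brighter Zfp30 probe read 6.41, 5.95 and 5.92 in ApoE-/- chow samples and 6.32, 6.47 and 6.28 in ApoE-/- high-cholesterol samples, all detected. In Bl6 it read 4.55, 4.26 and 4.30 on chow, then 4.70, 4.29 and 4.26 with cholesterol feeding, and sample 10 (4.70) was the 1 Bl6 array on which it was detected. The fitted difference was 1.83 ± 0.12, with 1.72 on chow and 1.94 with cholesterol feeding. On chow no Bl6 array detected it, and Zfp30 was 3.05-fold higher in ApoE-/- samples when a floor was used. There an undetected reading counts as the higher of its own value and the lowest signal any detected probe had on that array. This is not a lower bound, since without background correction the log2 difference over both diets was 0.63. The dimmer Zfp30 probe read 4.13 to 4.65 over all 12 arrays and was detected on 1, sample 6, so it was not tested and bears on no difference.

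Zfp420 read 4.20, 4.46 and 4.22 in ApoE-/- chow samples and 4.47, 4.61 and 4.28 in ApoE-/- high-cholesterol samples, none of them detected. Bl6 samples gave 6.35, 6.94 and 6.86 on chow, then 6.69, 6.38 and 6.44 with cholesterol feeding, all detected. Between the genotypes lay a gap of 1.74. With the same floor, Zfp420 was 4.36-fold lower in ApoE-/- samples over both diets, 4.80-fold on chow and 3.96-fold on the high-cholesterol diet. These are not lower bounds, since without background correction the log2 difference over both diets was -0.84. The measured means were 4.37 and 6.61, and the deposited intensities 94.6 to 114 and 161 to 204, which shows how near to background even the Bl6 readings lay.

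**Figure D1:**
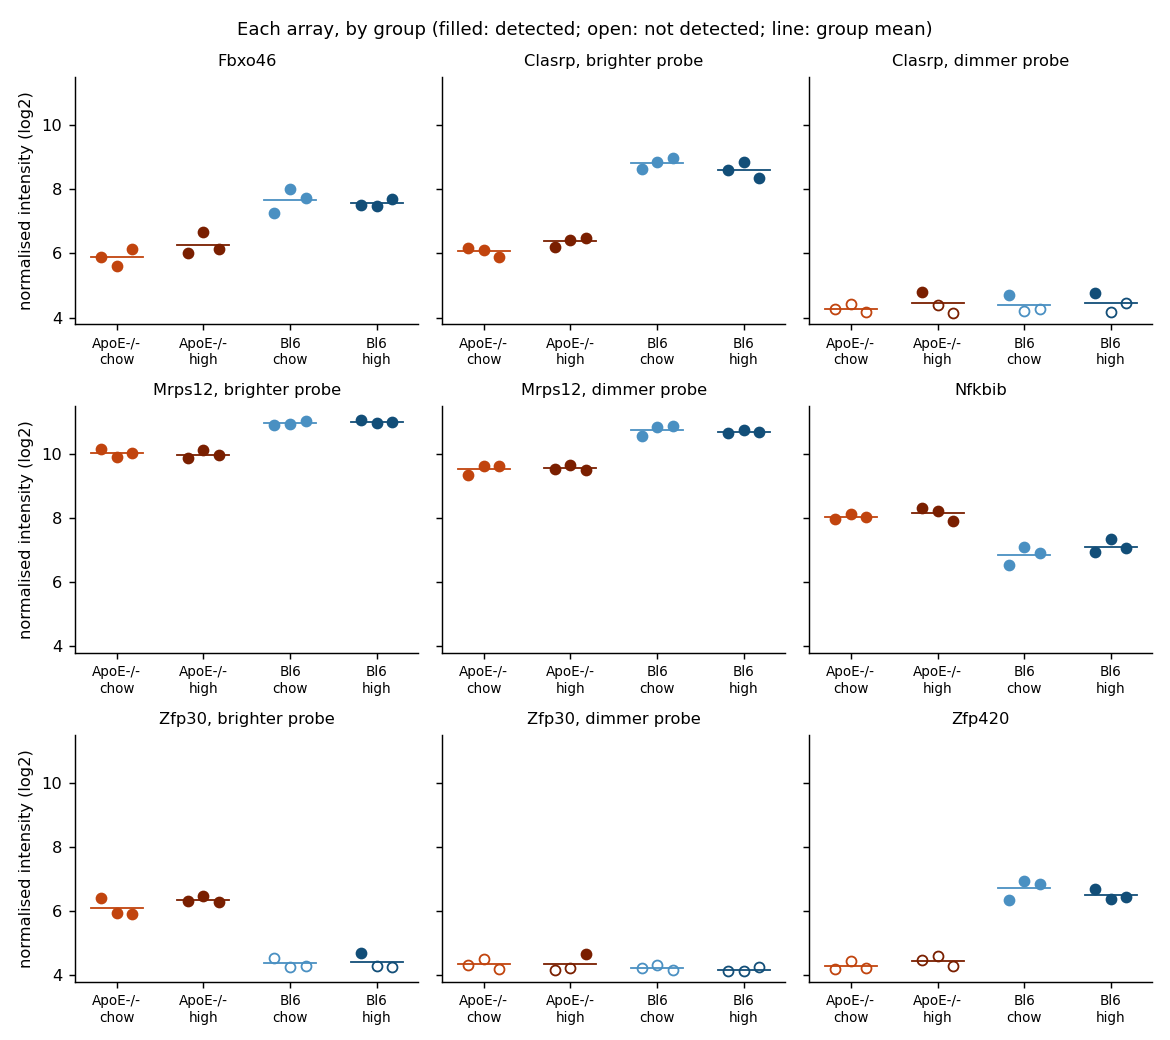
Normalised intensity (log2, vertical axis) of the 9 probes on each of the 12 arrays, by group; filled circles were detected above background, open circles were not, and the line is the group mean of 3 arrays. The genotypes separate on 7 panels, while the dimmer probes of Clasrp and Zfp30 stay near 4 to 5 in all groups.

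**Figure D2:**
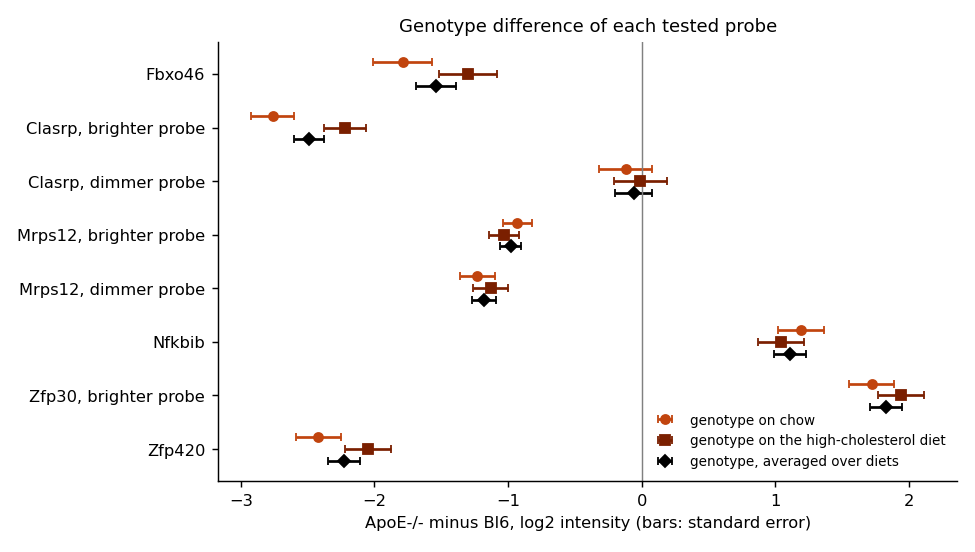
Genotype difference (ApoE-/- minus Bl6, log2, horizontal axis) of the 8 tested probes on chow, on the high-cholesterol diet and averaged over both, with bars for the standard error (3 arrays per group). Clasrp's brighter probe, Zfp420, Fbxo46 and both Mrps12 probes lie left of 0, Nfkbib and Zfp30 lie right of it, and the dimmer Clasrp probe lies at 0.

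The sizes by diet depend on which of the deposited tables names the ApoE-/- arrays correctly. The log2 table gives the values of samples 1, 2 and 3 under samples 4, 5 and 6 and the reverse, so the diets of the ApoE-/- arrays are exchanged there, while the averages over diets are the same. With that naming, the Clasrp difference was -2.45 on chow, against -2.53 with cholesterol feeding, and that of Fbxo46 was -1.40 and -1.69. Zfp420 then read -2.26 and -2.21, Zfp30 1.99 and 1.68, and Nfkbib 1.30 and 0.93. Mrps12 stayed between -1.20 and -0.97 on its 2 probes. The genotype direction of the 7 probes was thus the same on either diet under either naming, whereas the diet with the larger difference depended on the naming for Clasrp, Fbxo46 and Zfp30.

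The 6 genes stand among many tested neighbours, most of which were not called by genotype. Of the other 384 tested genes near Apoe that are not apolipoproteins, each represented by its brightest probe, limma called 10 higher and 17 lower by genotype (adjusted p under 0.05), with a median difference of -0.00. Over all 13525 tested genes the same rule called 268, or 1.98%, 114 higher and 154 lower, with a median of 0.01. The 6 described are among the 33 near genes called in all. The 384 count Hbb-b1 and Hbb-b2, neither of them called, by a placement along the chromosome that was not checked and may be wrong. Psmd8, of the proteasome, differed by -3.22 ± 0.08, and Pglyrp1, which recognises bacterial peptidoglycan, differed by 1.53 ± 0.11. As for the 6 genes, the part of the cell mixture in the readings of these near genes was not tested. At the threshold, Pld3 lay just inside with -0.50 ± 0.11 and Bbc3 just outside with -0.33 ± 0.07.

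**Figure D3:**
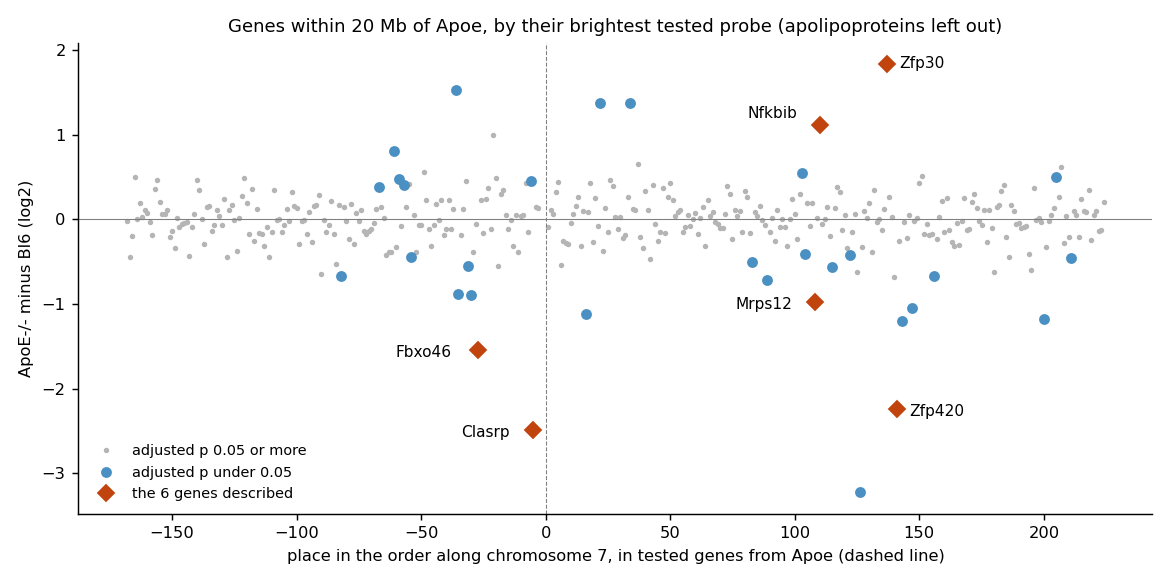
Genotype difference (ApoE-/- minus Bl6, log2, vertical axis) of each tested gene placed within 20 Mb of Apoe, in its order along chromosome 7 counted in tested genes from Apoe (horizontal axis), without apolipoprotein genes. The placement of Hbb-b1 and Hbb-b2, the first in this order, was not checked and may be wrong. Most points lie near 0, and the 6 labelled genes lie at differences from -2.49 to 1.83 with unlabelled small differences on both sides of each.

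The protein-coding genes closest to the 6 are described next. The nearest tested one on each side gave 11 distinct genes, since Sars2 flanks both Mrps12 and Nfkbib. Up to 3 untested genes lay between, as for Sipa1l3 before Zfp30. Of the 11, 1 was called, beside 27 of the other 384 tested near genes and 1.98% of all tested genes. Nothing is read from that count. The called gene was Zfp296, a zinc-finger gene next to Clasrp. It rose by 0.45 ± 0.09 (limma adjusted p = 0.0313) while the brighter Clasrp probe read lower. Another Zfp296 probe read 0.34 higher and missed the threshold (limma adjusted p = 0.0704). On Clasrp's other side, Relb, an NF-kappaB subunit, differed by 0.14 ± 0.09 (limma adjusted p = 0.508).

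Sars2, which encodes the mitochondrial seryl-tRNA synthetase, starts 147 bases from Mrps12 on the opposite strand. It differed by 0.01 ± 0.12 (limma adjusted p = 0.977), was detected on all 12 arrays and had overlapping genotypes, beside the 1.97-fold and 2.27-fold lower readings of Mrps12. The Sars2 probe was dim, however, at 5.36 to 5.81 on ApoE-/- arrays and 5.20 to 5.84 on Bl6 arrays. At that level its value says less than that of a bright probe would. Fbxo27, on the other side of Mrps12, differed by 0.19 ± 0.19 (limma adjusted p = 0.697). It read near background, with means of 4.95 in ApoE-/- and 4.76 in Bl6 samples, so its value says little. Sirt2, a deacetylase that starts next to Nfkbib, differed by -0.06 ± 0.09 (limma adjusted p = 0.803). Around Zfp30, Sipa1l3 differed by 0.01 ± 0.10 and Zfp790 by 0.03 ± 0.13. Around Fbxo46, Six5 differed by -0.06 ± 0.20 and Snrpd2, a core protein of spliceosomal particles, by 0.23 ± 0.09. Six5 read near background, with means of 4.58 in ApoE-/- and 4.64 in Bl6 samples, so its value says little. Zfp940, before Zfp420, differed by -0.68 ± 0.16 and missed the threshold (limma adjusted p = 0.0551), with detection on 1 of 6 ApoE-/- and 6 of 6 Bl6 arrays. Zfp27, after Zfp420, differed by -0.26 ± 0.14 (limma adjusted p = 0.394).

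A probe reads one short stretch of a transcript, so how far probes of one gene agree bears on each of these values. Near Apoe, 131 genes had at least 2 tested probes, the 6 genes included, and 25 of them had a probe called by genotype. In 6 of the 25 (24%) all probes were called in the same direction, as for Mrps12, and in 11 (44%) a probe had the opposite sign. Among 5117 other placed genes with at least 2 tested probes, 150 had a called probe. In 9 of those (6%) all probes were called one way, and in 44 (29.3%) a probe, called or not, had the opposite sign. These shares are given as counts, with no test. For Fbxo46, Nfkbib and Zfp420 a single probe carries the whole reading, and for Clasrp and Zfp30 the dimmer probe was near background, so their differences are those of 1 probe each.

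The partners of these genes in their own pathways were followed through lists of related genes, with the 6 left out. Of 12 NF-kappaB and IkB genes, 0 were called by genotype, against 1.6% of all tested probes, with a median difference of 0.09. The smallest p among them was that of Bcl3, at 0.45 ± 0.10 (limma adjusted p = 0.0559), with all ApoE-/- arrays above all Bl6 arrays. Bcl3, an IkB family member, lies near Apoe, as do Relb and Nfkbid of this list. Of 27 tested genes of the small mitochondrial ribosomal subunit, 0 were called, with a median of -0.01, and the pair with the smallest p, Mrps22 (0.25 ± 0.08) and Mrps15 (-0.20 ± 0.10), had opposite signs. The 20 tested SR proteins and CLK kinases had 0 calls and a median of -0.02, with Srsf11 at 0.30 ± 0.09 and Srsf5 at -0.41 ± 0.13. The 28 tested SCF and F-box genes had 0 calls and a median of -0.05, with Fbxo45 at 0.32 ± 0.08 and Fbxo9 at -0.28 ± 0.09. At a share of 1.98% of all tested genes, lists this short would hold few or no calls, so nothing is read from the 0 calls.

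Among the zinc-finger genes near Apoe there were calls by genotype. Of 49 tested, 1 rose and 4 fell with genotype, at a median of -0.01, beside 27 of the other 384 tested near genes and 1.98% of all tested genes. These counts were not compared by a test, and the 49 are part of the 384. Zfp383 fell by 1.20 ± 0.14 (limma adjusted p = 0.00137), with detection on 5 of 6 ApoE-/- arrays. Zfp235 fell by 1.11 ± 0.13 in the fit (limma adjusted p = 0.00157) and was detected on 0 of 6 ApoE-/- arrays, so its fitted size is not a bound. The zinc-finger list comes from the same stretch of chromosome as the 6 genes and is no independent evidence about it.

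Across the 12 arrays, the genes whose levels ran most like those of the 6 were ones that also part the genotypes. The likeness is Pearson's r over 12 arrays that fall into the 2 genotypes, so it mostly repeats that split and is a description only. Clasrp was closest to Xist (0.988), Zfp420 (0.985) and Psmd8 (0.985). Zfp420 was closest to Psmd8 (0.986), Clasrp (0.985) and Xist (0.983), and Mrps12 to Apoe (0.984), Psmd8 (0.982) and Xist (0.976). Zfp30 was closest to the Y-linked Kdm5d (0.974) and Eif2s3y (0.973) and to Tescl (0.970). Nfkbib was closest to Inafm1 (0.970), Eif2s3y (0.952) and Kdm5d (0.934), and Fbxo46 to Zfp420 (0.960), Arrdc3 (0.956) and Ccdc61 (0.953). The lists of Clasrp, Zfp420 and Mrps12 thus hold Xist, and those of Zfp30 and Nfkbib hold both Y-linked genes.

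The high-cholesterol diet did not change any of the 8 tested probes by limma's adjusted p under 0.05, in any of 4 comparisons. Averaged over genotypes 0 of 8 were called, against 0% of 26390 tested probes, and the smallest adjusted p was 0.764 (limma). At an unadjusted p under 0.05 these were 0 of 8, against 7.43%. In Bl6 samples 0 of 8 were called, against 0.0379%, with 0 of 8 against 12% unadjusted and a smallest adjusted p of 0.589 (limma), that of Nfkbib. In ApoE-/- samples 0 of 8 were called, against 0%, with 0 of 8 against 3.72% unadjusted and a smallest adjusted p of 1 (limma). For the interaction, the difference between the diet effects of the 2 genotypes, 0 of 8 were called, against 0%, and 1 of 8 against 7.6% unadjusted, with a smallest adjusted p of 0.611 (limma).

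The intervals show what sizes of diet effect the 3 arrays per group leave possible. The values follow the intensity table's names, and with the ApoE-/- diets exchanged every ApoE-/- diet effect keeps its size and turns its sign. Mrps12 was pinned most closely: its brighter probe differed between diets by 0.06 in Bl6 (95% interval -0.18 to 0.31) and by -0.04 in ApoE-/- samples (-0.28 to 0.20). Nfkbib read 0.26 higher on the high-cholesterol diet in Bl6 (-0.11 to 0.63) and 0.11 higher in ApoE-/- samples (-0.26 to 0.48). Fbxo46 read 0.39 higher in ApoE-/- (-0.09 to 0.87) and -0.10 in Bl6 samples (-0.58 to 0.38), so a log2 change of 0.5 stays within the ApoE-/- interval. With the ApoE-/- diets exchanged, the ApoE-/- effects were -0.39 for Fbxo46, -0.11 for Nfkbib and 0.04 for the brighter Mrps12 probe.

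Zfp30 differed by 0.26 in ApoE-/- samples (-0.11 to 0.63), the genotype in which it was detected, and Zfp420 by -0.21 in Bl6 samples (-0.58 to 0.16), the one in which it was detected. The brighter Clasrp probe differed by -0.22 in Bl6 (-0.56 to 0.12) and by 0.31 in ApoE-/- samples (-0.03 to 0.65). Its 3 ApoE-/- high-cholesterol arrays all lay above the 3 ApoE-/- chow arrays, which was so, in either direction, for 1 of the 8 probes and for 8.31% of all tested probes. Under the log2 table's names these same arrays are the chow arrays, all above the others, and the ApoE-/- effects were -0.31 for Clasrp and -0.26 for Zfp30. In Bl6 no probe of the 8 was parted by diet, against 16%.

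Clasrp had the one interaction that passed without adjustment, 0.53 ± 0.22 (95% interval 0.05 to 1.01, unadjusted p = 0.0341), which missed the threshold over all probes (limma adjusted p = 0.611). With the ApoE-/- diets exchanged it was -0.09 (limma adjusted p = 0.953). The other 7 probes had interactions from -0.15 (Nfkbib) to 0.49 (Fbxo46), with intervals that include 0.

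**Figure D4:**
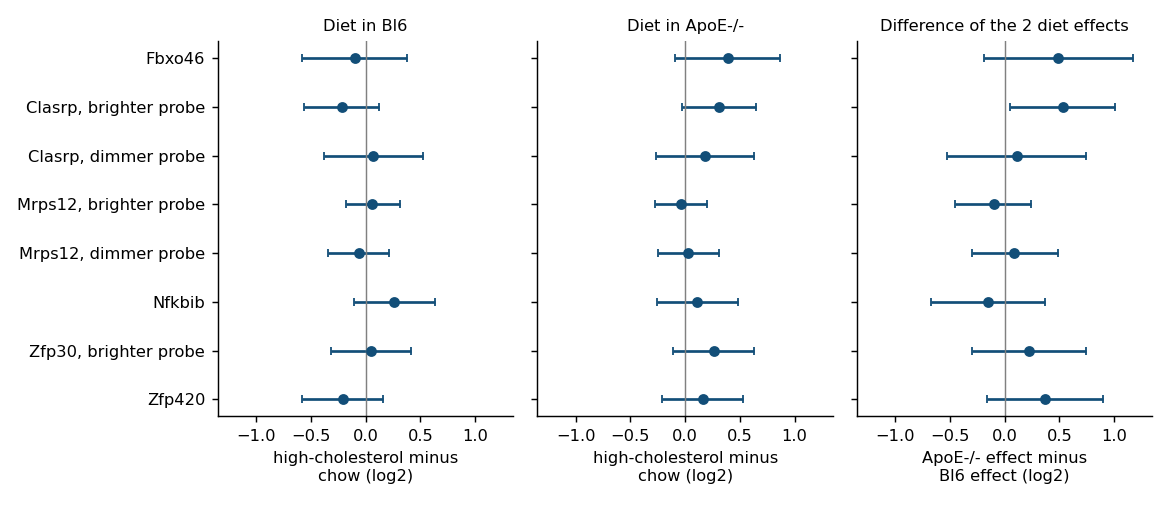
Diet effect (high-cholesterol minus chow, log2) of the 8 tested probes in Bl6 and in ApoE-/- samples, and the ApoE-/- effect minus the Bl6 effect, with 95% intervals as bars (3 arrays per group), under the intensity table's names. The intervals cross 0 everywhere except for the brighter Clasrp probe in the right panel, 0.05 to 1.01.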

How the data were processed

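Per the file headers, the authors deposited a linear intensity per probe and array, without background subtraction, each with a detection p-value. A second deposited table holds log2 values, which equal the log2 of the intensity plus a constant per array (0 to 0.443). It exchanges the diets of the ApoE-/- arrays, so 6 of its 12 columns match the array of the same name. The intensity table's names were used. Median intensity was 102 to 120, against a background mean of 95.8 to 111, and 47.7% to 50.3% of probes were detected. The number of arrays limits the precision.

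In limma 3.58.1 (R 4.3.3), background was corrected with nec (negative controls inferred from detection p-values, offset 16), arrays were quantile-normalised and log2 was taken. The 26390 probes with detection p under 0.05 on at least 3 arrays were tested with lmFit and eBayes on 4 group means (8 residual degrees of freedom, two-sided), with Benjamini-Hochberg adjustment over all of them. Probes were named through the platform's probe list and updated with the GRCm38.p6 gene table (28620 by gene number, 2637 by transcript, 2128 by symbol, 2343 by older symbol, 56 unmatched). The members and lists were chosen with earlier results of these data known. Named genes were every probe of the members, Apoe and the sex-linked genes, and the nearest tested protein-coding genes on each side. Also named were up to 2 genes of smallest p per list, the genes at the threshold and the 3 most correlated with each member. On simulated data for the diet effect in Bl6 (26390 probes), the test recovered 74 of 100 probes given a log2 change of 1. It recovered 99 of 100 given 2, with 7 false calls. The simulated noise was independent between probes, with the spread from limma's model. More probes were changed than the 10 called in the real contrast, so the recovery may overstate that of the real test.

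The alternatives were no background correction, an offset of 50, median scaling, no filter on dim probes, detection on at least 6 arrays, exchanged ApoE-/- diets, the deposited log2 table, 1 genotype's arrays alone, and leaving out each array. Neither labels nor headers name a chip or scan for any array, so no batch could be tested.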

Additional observations from a re-analysis of the deposited data

How the results depend on the processing

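The count of 7 probes on which the genotypes did not overlap was the same under every alternative with both genotypes. Nothing is read from this, since the genes were chosen on the genotype contrast. Exchanging the ApoE-/- diets or changing the filter cannot alter the overlap, and leaving out an array mostly narrows the ranges. The 0 calls among the 8 tested probes for each diet comparison and the interaction also held under every alternative, leaving out each array included. The size of the genotype differences depended on the background. Without background correction that of Zfp420 was -0.84, of Zfp30 0.63, of Clasrp (brighter probe) -1.65 and of Fbxo46 -0.87, in place of -2.23, 1.83, -2.49 and -1.54. With an offset of 50 they were -1.27, 0.99, -2.06 and -1.18, and in the deposited log2 table -0.76, 0.71, -1.59 and -0.82. Mrps12 moved least, to between -0.87 and -1.01 on its brighter probe. The sign of the diet effects, none of which passed, changed in 24 of 148 alternative values averaged over genotypes, 21 of 154 in ApoE-/- and 6 of 154 in Bl6 samples, and that of the interaction in 13 of 148. Exchanging the ApoE-/- diets turns the sign of every ApoE-/- diet effect by construction, and the log2 table holds the same exchange. The ApoE-/- count is thus not comparable with that of Bl6. The exchange also enters the counts for the average and the interaction. The dimmer Clasrp probe was not tested with detection required on at least 6 arrays, nor without sample 4, 7 or 10. The genotype calls over all probes, 423, ranged from 143 (without sample 1) to 619 (without sample 7), with 1138 without background correction, 895 with an offset of 50 and 1653 in the log2 table. The diet calls in Bl6, 10, became 266, 133 and 221 under the same 3 settings and 2 to 28 on leaving out 1 array. With 2 arrays left in a group, the spread is taken from all groups. No paired analysis was possible because the running numbers 1 to 12 are not shared between groups. Near background, as for Zfp30, Zfp420 and the dimmer probes, signal limits what can be measured.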
